A study of Homo sapiens with 9 samples.

Results

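The baseline transcriptome of CAL-27 control cells is described here from the 3 libraries labelled Control, out of 9 libraries in the series. CAL-27 is an established line of human tongue squamous cell carcinoma, grown as a monolayer with no stromal or immune cells added. According to the design text, the Control cells were transfected with a control for 48 h; what that control was is not given in the sources used here. The other 6 libraries come from cells given siRNA against LEF1 or KDM4A and are not used, so no groups are compared and no test is made. All 3 libraries come from the same line, and the values show what this line expressed in culture, not what a tongue tumour expresses.

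Stratified squamous epithelium is built from a basal layer that divides and holds to the basement membrane, and from layers above it that stop dividing and cornify. The layers are told apart by their keratins, which pair as a type I and a type II chain: KRT5 with KRT14 in basal cells, KRT6A with KRT16 and KRT17 in activated or wounded epithelium, KRT1 with KRT10 or KRT4 with KRT13 above the basal layer, and KRT8 with KRT18 in simple, single-layered epithelia. Squamous carcinomas of the head and neck commonly keep the basal programme, driven by TP63, and commonly carry extra copies of the region around CCND1, which encodes cyclin D1.

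Expression was read in FPKM, the fragments of a gene per kilobase of its exons, relative to the reads of the library, scaled by a constant. Values could be turned back into whole reads, and a library held 15263085 to 15568207 reads. A gene was called expressed at 1 FPKM or more in every library, and silent at the depth reached when it had 3 reads or fewer in every library, which for a gene of 1 kb corresponds to 0.193 to 0.197 FPKM. On these terms 11834 of 33216 genes listed were expressed (35.6%), 12762 were at or under 3 reads (38.4%) and 8620 lay between. Among protein-coding genes, 10369 of 16883 were expressed (61.4%), and the counts for gene families are given against this share. Both count only genes in the deposited table, which leaves out some members of several lists. Levels of 10 FPKM in every library were reached by 4564 genes, of 100 FPKM by 288 genes and of 1000 FPKM by 20 genes. The median coefficient of variation of a gene across the libraries was 3.42% between 10 and 100 FPKM, where the counting error expected from the mean reads is 2.64%. It was 2.59% between 100 and 1000 FPKM, against 1.15% from counting, and 4.47% for the 20 genes above 1000 FPKM, against 0.523%, so the spread of abundant genes was mostly more than counting error. The chi-square of reads, divided by the number of genes, was 2.16 to 2.66 between pairs of libraries, above the value near 1 that sampling alone gives, so no library was a copy of another.

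The 4 genes chosen as markers of this line were all abundant. KRT5 was at 243, 219 and 232 FPKM in the 3 libraries, and KRT17 at 120, 113 and 115 FPKM. CCND1 was at 346, 346 and 342 FPKM, and F3, the gene of tissue factor, at 641, 650 and 634 FPKM. All 4 stood among the 288 genes above 100 FPKM in each library, F3 as the 26th and CCND1 as the 60th gene of the whole table by mean. In hg38 with GENCODE release 29, KRT5 lies at chr12:52514575-52520687 on the minus strand, KRT17 at chr17:41619441-41624842 on the minus strand, CCND1 at chr11:69641087-69654474 on the plus strand and F3 at chr1:94529225-94541800 on the minus strand.

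Transcripts of the mitochondrial genome led the table. They filled 14 of the 20 highest places by mean, and the 17 mitochondrial genes listed made up 14.3% ± 0.298 of all FPKM (SD, n = 3). MT-CO1, a subunit of cytochrome c oxidase, was at 8258, 8433 and 8271 FPKM, and MT-CO2, another subunit of that enzyme, at 5343, 5683 and 5398 FPKM. MT-CO3 followed with a mean of 3845 ± 196 FPKM and MT-ND4, of complex I, with 3524 ± 78.9 FPKM. The ranges of these 4 genes did not overlap, and the closest pair was MT-CO3, at 3690 FPKM or more, and MT-ND4, at 3575 FPKM or less. Of the transfer RNA genes listed, MT-TP reached 1220 ± 106 FPKM, while MT-TF had at most 1 read in a library. Such short genes turn few reads into high FPKM: MT-TP is 68 bases long and its value rests on 1199 to 1418 reads.

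The 6 nuclear genes among the 20 highest were FTL, MT2A, EEF1A1, TMSB10, ACTB and GAPDH. FTL, the light chain of the iron store ferritin, was at 3003, 3281 and 3115 FPKM, above every other nuclear gene. The heavy chain FTH1 was at 593, 698 and 827 FPKM, with Control 1 lowest and Control 3 highest, and FTL exceeded it 4.51 ± 0.670-fold. The coefficient of variation of FTH1, 16.6%, was the largest among the 100 highest genes. EEF1A1, which brings aminoacyl transfer RNA to the ribosome, had 1384 ± 44.9 FPKM, and TMSB10, which binds actin monomers, 1377 ± 78.8 FPKM. ACTB, the cytoskeletal actin, had 1175 ± 39.4 FPKM and the glycolytic enzyme GAPDH 1069 ± 18.3 FPKM.

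**Figure D1:**
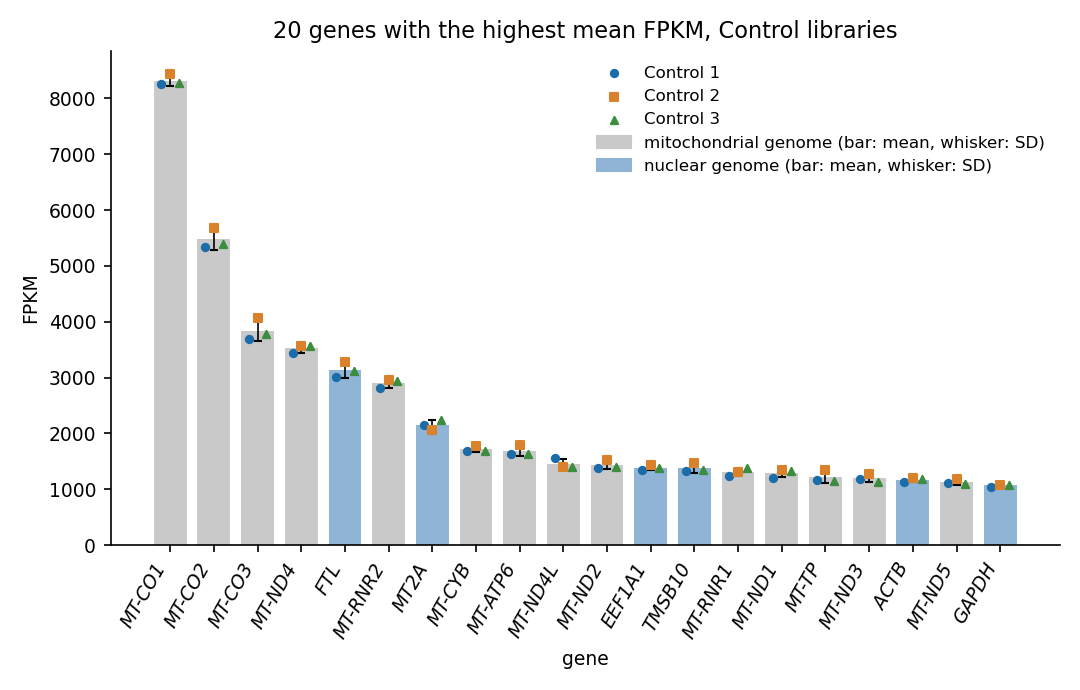
FPKM of the 20 genes with the highest mean over the Control libraries; bars give the mean of 3 libraries, whiskers the SD and symbols each library, with grey bars for genes of the mitochondrial genome and blue bars for nuclear genes. MT-CO1 stands at a mean of 8321 FPKM and GAPDH, the last, at 1069 FPKM.

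A small set of genes carried much of the signal. The 10 highest genes held 13.2% ± 0.184 of all FPKM, the 100 highest 30.1% ± 0.501 and the 1000 highest 57.7% ± 0.536. Genes of varied roles came below the first 20 places. ENO1, a glycolytic enzyme, was at 910 ± 3.92 FPKM, EEF2, the elongation factor that moves the ribosome along, at 640 ± 6.06 FPKM and HSPA5, the chaperone of the endoplasmic reticulum, at 586 ± 23.1 FPKM. HMGA1, a chromatin protein common in growing cells, was at 569 ± 20.3 FPKM, and SDC4, a heparan sulphate proteoglycan of the cell surface, at 375 ± 4.44 FPKM.

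Keratins were described first as a family. Of the 36 keratin genes in the table, 12 were expressed, 10 lay between and 14 were at or under 3 reads in every library; the 33.3% expressed is below the 61.4% of all protein-coding genes. They summed to 833, 809 and 824 FPKM, or 0.317% ± 0.00715 of all FPKM, and the 4 highest supplied 86.0% of that sum. Those 4 were KRT5, KRT8, KRT18 and KRT17, so that the keratins of basal cells, of simple epithelia and of activated epithelium were abundant together.

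KRT5 and KRT8, both type II chains, could not be ranked by FPKM. KRT8 was at 225, 237 and 231 FPKM, inside the range of KRT5, and the ratio of KRT5 to KRT8 was 1.004 ± 0.0778. The exons of KRT8 are annotated over 6881 bases and those of KRT5 over 4292 bases. In reads, KRT8 had 24111 to 25276 a library and KRT5 14595 to 16261, so KRT8 was higher on that scale. KRT18, the type I partner of KRT8, was at 126, 128 and 131 FPKM, lower than KRT8 in every library and higher than KRT17 in every library. KRT17 is a type I chain of activated epithelium and of many squamous carcinomas. KRT5 exceeded KRT17 by 2.001 ± 0.0490-fold in FPKM.

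The type I partner that KRT5 has in basal cells was much lower. KRT14 was at 28.2, 23.1 and 26.0 FPKM, and KRT5 exceeded it 9.02 ± 0.438-fold. KRT80, a type II chain found widely in epithelia, was at 45.2, 45.3 and 43.1 FPKM. KRT6A, the type II chain induced in wounded epithelium, was at 29.7, 26.9 and 26.2 FPKM, overlapping KRT14. KRT16, its usual type I partner, was lower at 4.96, 4.6 and 5.53 FPKM. KRT15, a type I chain of basal and stem cells, reached 1.86 FPKM.

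Reads of these genes are partly ambiguous, because keratins of one type resemble each other. Of all windows of 50 bases in their annotated transcripts, 32.1% in KRT6A, 47.1% in KRT6B, 16.8% in KRT14 and 16.5% in KRT16 occur also in another gene, against 2.17% in KRT5 and 9.02% in KRT17. Summed over near copies, KRT6A, KRT6B and KRT6C together had 30.04 ± 1.38 FPKM, and KRT14, KRT16 and KRT17 together 146 ± 6.34 FPKM. How the authors' counting treated reads that fit several genes was not stated, so the split within these sums is uncertain.

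Keratins of the upper layers were scarce. KRT10, the type I chain of suprabasal epidermis, was at 2.52, 4.32 and 4.83 FPKM, with Control 1 lower than the others. KRT13, the type I chain of suprabasal mucosa, had a mean of 0.133 FPKM, and its partner KRT4 had no read in any library. KRT2, KRT33B, KRT72 and KRT79 also had no read in any library. KRT19, a type I chain of simple epithelia and of the basal layer of mucosa, had 5 reads in Control 1 and none in Control 2 or Control 3, although only 0.977% of its 50-base windows occur in another gene. KRT7 lay below 1 FPKM at a mean of 0.621 FPKM. KRT20, a keratin of gut epithelium, was at or under 3 reads in every library. Of 7 hair keratins in the table only KRT81 was expressed, at 1.72 ± 0.0381 FPKM. Another 10 of the 17 listed were not in the table and are not counted.

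**Figure D2:**
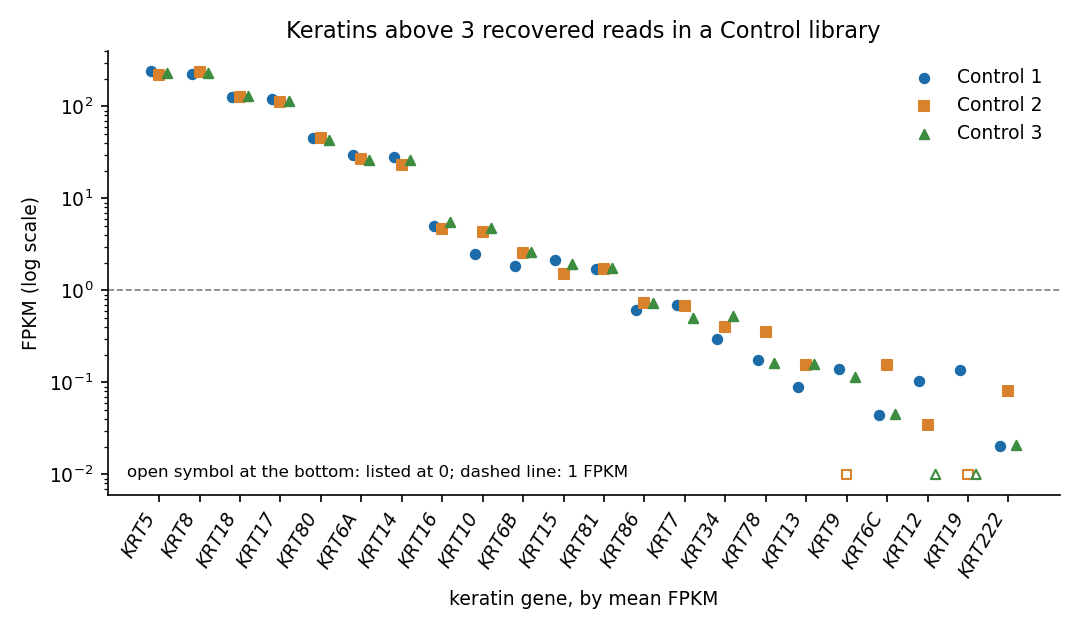
FPKM of the 22 keratin genes with more than 3 reads in at least 1 Control library, on a log axis; each symbol is 1 library, open symbols at the bottom mark a value of 0 and the dashed line marks 1 FPKM. KRT5, KRT8, KRT18 and KRT17 lie above 100 FPKM in every library and 12 keratins lie above the line in all 3 libraries.

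Most listed genes of the basal layer were expressed. Of 24 basal squamous genes, 23 were expressed (95.8%), with SOX2 the exception. The list was chosen with earlier results of these data known, so this count is a description and no check of lineage. KRT8 and KRT18, of simple epithelia, were abundant as well, as given above. SFN, a marker of stratified epithelium, was at 665, 657 and 652 FPKM and S100A2, a calcium-binding protein of basal cells, at 403, 432 and 403 FPKM. LAMB3, a chain of the laminin that anchors basal cells, was at 349 ± 4.71 FPKM. ITGB4, the integrin chain of the hemidesmosome, was at 152 ± 3.66 FPKM. SOX2, a transcription factor of squamous progenitors, had 5, 4 and 4 reads, a mean of 0.112 FPKM.

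Of 21 genes of suprabasal and cornified cells in the table, 3 were expressed (14.3%), 8 lay between and 10 were at or under 3 reads. KLK5, a protease that sheds the outermost cells of skin, was highest at 14.4, 15.7 and 14.1 FPKM, followed by ECM1, a secreted matrix protein, at 4.80 ± 0.264 FPKM and by KRT10. TGM1, the enzyme that cross-links the cornified envelope, had a mean of 0.600 FPKM. Its substrate IVL was at or under 3 reads in every library, as were SPRR1A, SPRR1B, SPRR2A, TGM3, MAL, DSC1 and RPTN. Among family members in the table, 0 of 7 SPRR genes, 0 of 10 late cornified envelope genes and 0 of 28 keratin-associated protein genes were expressed. KRT1, DSG1, LOR, CRNN and SPRR3 were not in the table and are not analysed here.

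Simple epithelial markers were mixed. Of 11, 4 were expressed: KRT8, KRT18, EPCAM and MUC1. EPCAM, a cell surface adhesion protein of simple epithelia and many carcinomas, was at 73.4, 74.9 and 72.0 FPKM, and MUC1, a membrane mucin, at 2.42 ± 0.179 FPKM. ELF3 and CLDN3 lay below 1 FPKM with means of 0.876 and 0.849 FPKM. The gut markers KRT20, CDX2 and VIL1 were at or under 3 reads.

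Markers of other cell types were low. No member was expressed among 9 endothelial, 6 melanocyte, 5 salivary gland and 6 neural and glial genes in the table. Of 13 fibroblast and mesenchymal genes 3 were expressed: FN1, the matrix protein fibronectin, at 13.1 ± 0.543 FPKM, CDH2, N-cadherin, at 6.29 ± 0.308 FPKM and COL1A1, a collagen chain, at 2.39 ± 0.211 FPKM. The defining marker VIM, the intermediate filament vimentin, had 12, 19 and 3 reads, a mean of 0.142 FPKM, and DCN and POSTN had no read. Of 13 immune genes 2 were expressed: CD14, a receptor for bacterial lipopolysaccharide, at 3.64, 2.39 and 3.65 FPKM, and CSF1R, the receptor of macrophage colony-stimulating factor, at 2.39 ± 0.300 FPKM. PTPRC, the pan-leukocyte antigen, had no read in any library, and 8 of the 13 immune genes were at or under 3 reads. Of 7 skeletal muscle genes only TNNT1, a troponin of slow muscle, was expressed, at 17.1, 17.6 and 18.3 FPKM, while DES, CKM and MYH2 were at or under 3 reads.

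**Figure D3:**
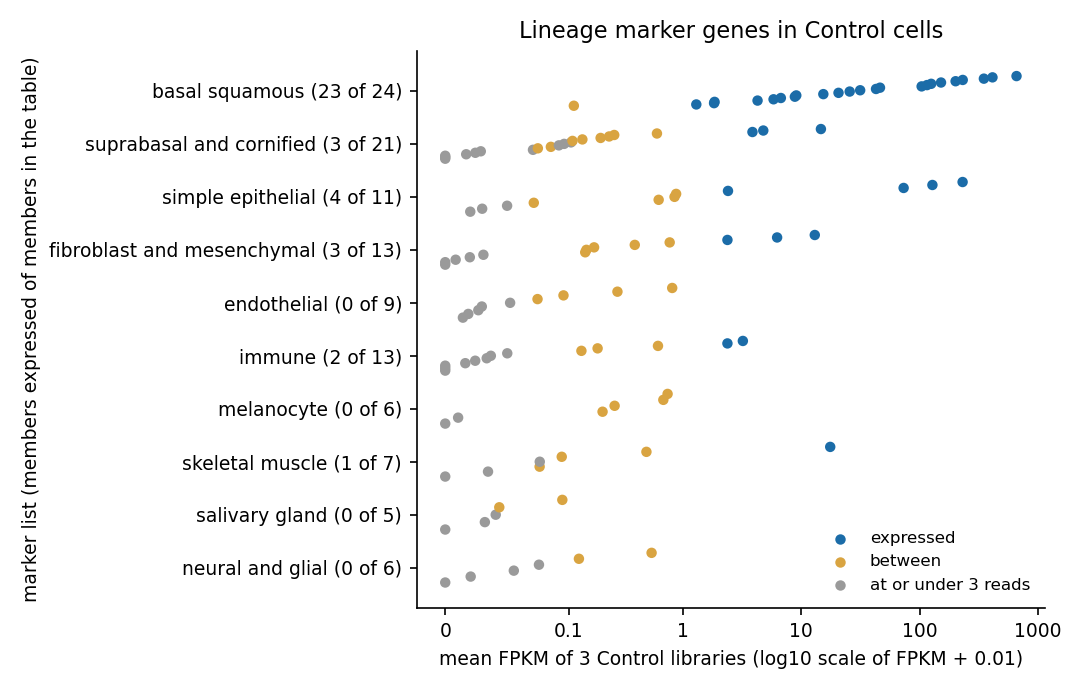
Mean FPKM over 3 Control libraries of each gene in 10 lineage marker lists, on a log scale of FPKM + 0.01; each point is a gene, blue if expressed, amber if between and grey if at or under 3 reads in every library. The basal squamous list has 23 of 24 members expressed, and the endothelial, melanocyte, salivary gland, neural and glial lists have none.

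Adhesion genes were described next. The hemidesmosome ties the basal cell to laminin, and the desmosome ties cell to cell. All 9 genes of the hemidesmosome and its laminin were expressed, PLEC, the linker to keratin, at 161 ± 2.25 FPKM, COL17A1 at 125 ± 4.38 FPKM and ITGA6 at 104 ± 2.06 FPKM. The third laminin chain LAMA3 was at 15.6, 15.3 and 15.5 FPKM, and LAMB3 exceeded it 22.6 ± 0.477-fold. The length by which the authors divided LAMA3 did not equal that of GENCODE release 29, so this ratio depends on the annotation.

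Of 12 desmosome genes in the table, 11 were expressed (91.7%). JUP, plakoglobin, was at 82.7 ± 0.859 FPKM, DSP, desmoplakin, at 54.6 ± 2.25 FPKM and PKP3, a plakophilin, at 54.5 ± 2.53 FPKM. The desmosomal cadherins were ordered as DSG2 (24.2 FPKM), DSG3 (6.76 FPKM), DSC3 (5.87 FPKM) and DSC2 (3.03 FPKM), whereas DSC1, the desmocollin of the upper layers, was at or under 3 reads. Among classical cadherins CDH1, E-cadherin, was at 58.1, 59.5 and 60.6 FPKM and CDH3, P-cadherin of basal cells, at 42.9, 42.9 and 43.1 FPKM. CDH1 exceeded CDH2 9.47 ± 0.654-fold. In all, 5 of 20 numbered cadherins were expressed.

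Integrins were led by the laminin receptors. Of 17 alpha chains 7 were expressed, with ITGA3 at 234, 236 and 238 FPKM, ITGA6 next, then ITGA5, of the fibronectin receptor, at 44.4 ± 1.31 FPKM and ITGA2, of the collagen receptor, at 34.4 ± 1.11 FPKM. Of 8 beta chains 6 were expressed, with ITGB1, the common partner, at 55.6 ± 0.625 FPKM after ITGB4. ITGB3 and ITGB7 were at or under 3 reads. Of 21 claudins, the sealing proteins of tight junctions, 7 were expressed, CLDN1 at 72.3 ± 2.96 FPKM and CLDN4 at 31.9 ± 0.370 FPKM. Of 15 connexins, the gap junction channels, 7 were expressed. Of 41 collagen chains 16 were expressed, COL17A1 first and COL6A1, of the pericellular microfibril, at 27.1 ± 0.815 FPKM. Of 11 laminin chains 7 were expressed, and LAMA5, of basement membranes generally, had 54.3 ± 4.70 FPKM.

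Tissue factor, the cell surface trigger of coagulation, led its list of 18 coagulation and urokinase genes, of which 12 were expressed. F3 rested on 27803 to 29012 reads a library, and 0.720% of its 50-base windows occur in another gene. Its inhibitor TFPI was at 1.36, 1.42 and 1.43 FPKM, so that F3 exceeded TFPI 457 ± 14.5-fold in FPKM, and its plasma partner F7 was at or under 3 reads, as were F2 and F5. PLAU, urokinase, was at 353, 335 and 341 FPKM, and its receptor PLAUR at 17.7, 19.97 and 17.9 FPKM. PROCR, the receptor of protein C, was at 18.98 ± 0.965 FPKM. F2RL1, the protease-activated receptor that tissue factor complexes can cleave, led the 14 protease-activated and lysophospholipid receptors in the table with 44.6 ± 1.57 FPKM, followed by F2R and LPAR1, both at 9.71 FPKM. Of those 14, 10 were expressed.

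Of 22 matrix metalloproteinases only 3 were expressed (13.6%). MMP14, bound to the membrane, was at 57.1, 56.8 and 58.0 FPKM and supplied 80.4% of the family's summed FPKM; MMP15 followed at 8.30 ± 0.251 FPKM and MMP19 at 1.505 ± 0.117 FPKM. MMP9, MMP8 and MMP10 were at or under 3 reads.

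Growth factor receptors were led by EGFR. Of 54 receptor tyrosine kinases in the table, 25 were expressed (46.3%), the median over all 54 was 0.785 FPKM, and 3 exceeded 100 FPKM in every library. EGFR, the receptor of epidermal growth factor, was at 227, 217 and 229 FPKM, EPHA2, a receptor of ephrin A ligands, at 175, 172 and 179 FPKM and AXL, the receptor of GAS6, at 120, 122 and 122 FPKM. These ranges did not overlap. DDR1, a collagen receptor, and MET, the receptor of hepatocyte growth factor, followed at 61.2 ± 1.30 and 60.9 ± 1.54 FPKM, with overlapping ranges. ERBB2 was at 7.44 FPKM, and EGFR exceeded it 30.2 ± 0.432-fold. The endothelial receptors KDR, TEK, TIE1 and FLT1 and the receptors KIT, ROS1, PDGFRA and MUSK were at or under 3 reads.

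Ligands of EGFR were present as well. Of 10 EGF family ligands in the table, 7 were expressed, AREG at 29.6, 32.2 and 31.7 FPKM, HBEGF at 23.0, 24.6 and 23.0 FPKM, TGFA at 12.4 ± 0.591 FPKM and EREG at 10.3 ± 1.11 FPKM. EGF itself was at 1.70 ± 0.0838 FPKM. Of 17 FGF ligands only FGF2 was expressed, at 22.4 ± 0.404 FPKM.

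Among cytokine receptors 22 of 26 listed were expressed (84.6%), again a chosen set. IL6ST, the shared signalling chain of the interleukin 6 family, was at 49.3, 46.8 and 46.9 FPKM and OSMR, the oncostatin M receptor, at 38.8, 37.7 and 38.9 FPKM. IFNGR1, of the interferon gamma receptor, was at 32.2 ± 0.934 FPKM and IL7R, better known from lymphocytes, at 25.1 ± 1.49 FPKM. TNFRSF12A, the receptor of TWEAK, was at 201, 195 and 202 FPKM, well above TNFRSF10B, a death receptor for TRAIL, at 47.5 ± 0.357 FPKM and TNFRSF1A at 32.5 ± 1.28 FPKM; 10 of 20 members of that superfamily were expressed. By contrast, 0 of 14 chemokine receptors were expressed, and CXCR4 was among the 9 at or under 3 reads.

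Of 31 listed chemokines and cytokines in the table, 24 were expressed, a count over chosen genes and not the whole families. IL1A, an epithelial alarm cytokine, was at 69.6, 67.3 and 63.7 FPKM, VEGFC, a lymphatic growth factor, at 56.6 ± 3.32 FPKM and CXCL16 at 54.6 ± 2.16 FPKM. CSF2, IL1B and LIF followed at 43.9 ± 3.36, 42.7 ± 0.968 and 41.7 ± 0.635 FPKM, with overlapping ranges. IL33, CXCL5 and CXCL14 were at or under 3 reads.

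TGF-beta receptors were led by TGFBR2 at 23.1, 21.8 and 22.1 FPKM, with TGFBR1 at 6.32 ± 0.381 FPKM, and 8 of 14 receptors of the family were expressed. Of the SMAD factors, which carry the signal to the nucleus, 6 of 8 were expressed. SMAD3 was at 53.7, 49.9 and 52.7 FPKM, whereas SMAD4, the partner shared by the pathway, was at 1.35, 1.30 and 1.43 FPKM and SMAD2 at 1.84, 1.70 and 1.70 FPKM. The exons of SMAD4 and SMAD2 are annotated over 13123 and 36366 bases and those of SMAD3 over 9113 bases, and FPKM divides by this length. In reads, SMAD3 had 7065 to 7613 a library, SMAD2 943 to 1042 and SMAD4 265 to 287, so SMAD4 was the lowest of these 3 on either scale.

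Of 14 Wnt receptors in the table, 11 were expressed (78.6%, against 61.4% of all protein-coding genes). At 2 FPKM the count was 8, and the median over all 14 was 3.29 FPKM. FZD6 was at 46.3, 44.7 and 46.0 FPKM, the co-receptor LRP5 at 27.1 ± 0.731 FPKM and FZD2 at 12.2 ± 1.02 FPKM. Of 16 Wnt ligands 4 were expressed, WNT7B highest at 11.5 ± 0.558 FPKM, then WNT7A, WNT3 and WNT10A. CTNNB1, beta-catenin, was at 49.4, 50.8 and 48.8 FPKM. LEF1, one of the factors through which beta-catenin acts and a siRNA target of the series, was at 1.19, 0.997 and 1.27 FPKM, resting on 99, 83 and 104 reads. It thus lay at the boundary of the call, just under 1 FPKM in Control 2. TCF7L2 was the highest factor of this family at 3.81 FPKM, 3.35 ± 0.506-fold above LEF1, and TCF7L1 and TCF7 were below 1 FPKM on average. KDM4A, a demethylase of histone H3 and the other siRNA target, was at 16.5, 16.5 and 16.6 FPKM, the highest of 4 KDM4 genes in the table; KDM4B followed at 5.18 ± 0.233 FPKM and KDM4C at 3.89 ± 0.172 FPKM.

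Among genes of the Hippo pathway's output, YAP1, a co-activator, was at 41.3 ± 0.449 FPKM and its paralogue WWTR1 at 13.3 ± 0.430 FPKM. TEAD1, the leading DNA-binding partner, was at 32.3 ± 0.869 FPKM, and TEAD2, TEAD3 and TEAD4 were expressed too. Of the Notch genes 6 of 9 were expressed, JAG2, a ligand, at 23.9 ± 0.686 FPKM and NOTCH2 at 18.6 ± 0.480 FPKM.

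The most abundant of the listed transcription factors was FOSL1, a member of the AP-1 dimer. FOSL1 was at 475, 487 and 526 FPKM, the 38th gene of the table, while its relative FOS was at 0.913, 0.835 and 0.809 FPKM; the ratio of FOSL1 to FOS was 584 ± 64.9. JUNB, JUN and JUND, the partners, were at 55.1 ± 5.41, 37.0 ± 1.32 and 29.6 ± 2.75 FPKM, and 9 of 15 AP-1 genes were expressed. FOSB and BATF3 had means of 0.502 and 0.461 FPKM.

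The AP-1 dimer binds the letters TGAGTCA or their reverse complement. These letters were searched on both strands in the 250 bases before each annotated start in RefSeq (GRCh38.p14), where 43.0% of the genes had an entry. They occur before 4.2% of 35093 starts, and before 4.76% of the 315 starts of genes at 100 FPKM or more in every library. The letters CTTTGAT, bound by LEF1 and its relatives, occur before 2.26% of all starts and before 2 of those 315. A match is a run of letters only and does not show binding. Matches were located in a few chosen genes only. Of these, S100A2, F3 and MT2A, all above 100 FPKM in every library, hold 1 AP-1 match each. Those of S100A2 and F3 are shown in capitals, and MT2A is printed further below. S100A2 has 2 annotated starts, and the stretch shown lies before the start at the higher coordinate. It covers positions -120 to -1 (chr1:153565845-153565964, minus strand) with its match at -52. The F3 stretch covers positions -250 to -131 (chr1:94541890-94542009, minus strand) with its match at -210.
S100A2: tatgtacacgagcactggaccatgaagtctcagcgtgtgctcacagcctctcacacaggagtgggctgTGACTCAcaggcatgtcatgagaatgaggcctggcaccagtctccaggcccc
F3: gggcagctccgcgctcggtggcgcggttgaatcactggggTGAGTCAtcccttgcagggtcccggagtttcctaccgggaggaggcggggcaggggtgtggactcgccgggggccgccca

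Factors of epithelial identity came next. EHF, an ETS factor of epithelia, was at 169, 167 and 160 FPKM and SOX15, a SOX factor of squamous epithelium, at 85.7, 91.0 and 94.6 FPKM. SOX9 followed in its family at 13.6 ± 0.657 FPKM, and 7 of 12 SOX genes were expressed. TP63, the master factor of the basal layer, was at 31.4, 31.5 and 31.8 FPKM, above its relative TP73 at 3.31, 2.78 and 3.33 FPKM. The splicing regulator ESRP1, which maintains epithelial isoforms, was at 26.7 ± 1.38 FPKM, BNC1, of basal keratinocytes, at 20.7 ± 1.08 FPKM and TFAP2A at 17.1 ± 0.711 FPKM. Of the factors that drive epithelial to mesenchymal transition, SNAI2 was at 15.1, 14.99 and 16.3 FPKM, TWIST1 at 3.14 ± 0.271 FPKM and SNAI1 at 1.37 ± 0.201 FPKM, while ZEB1 and ZEB2 had means of 0.399 and 0.123 FPKM.

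Other families were carried by broadly used members. STAT6, of cytokine signalling, was at 35.2 ± 0.791 FPKM, and 6 of 7 STAT genes were expressed. KLF5, KLF10 and KLF4 were at 27.98 ± 0.348, 27.7 ± 1.1 and 26.0 ± 2.03 FPKM, each range overlapping the next, and 11 of 18 KLF genes were expressed. Of 47 nuclear receptors in the table, 20 were expressed, ESRRA first at 43.4 ± 0.800 FPKM, then NR1H2, PPARD and RXRA. ESR1 and PGR, the receptors of oestrogen and progesterone, had means of 0.107 and 0.285 FPKM. All 8 E2F factors, of the cell cycle, and all 3 RUNX factors were expressed, whereas 21 of 42 forkhead factors were, led by FOXM1, of mitosis, at 21.0 ± 0.655 FPKM. Of 415 numbered zinc finger genes 251 were expressed, 60.5% against 61.4% of all protein-coding genes.

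**Figure D4:**
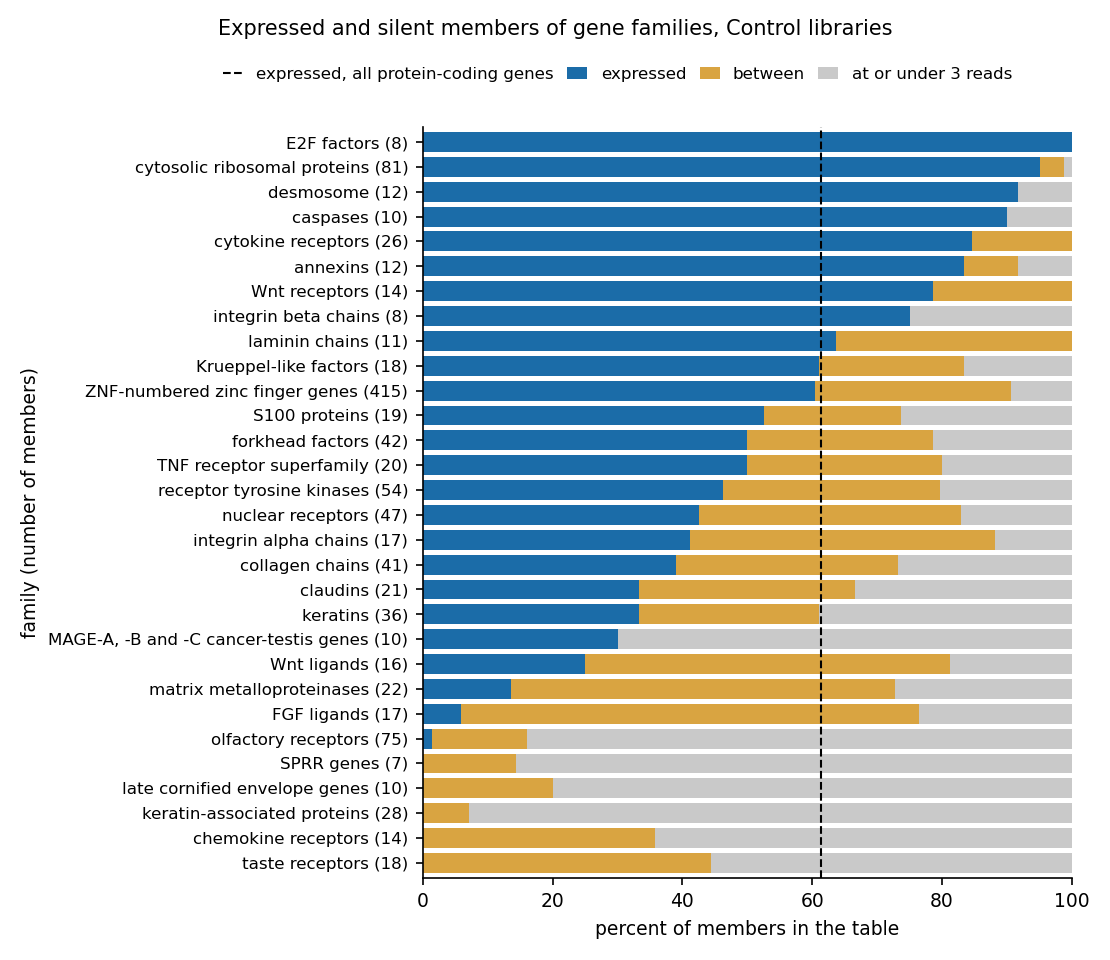
Percent of members of 30 gene families that were expressed (blue), between (amber) or at or under 3 reads in every Control library (grey), with the number of members in the table in brackets; the dashed line marks the 61.4% of all protein-coding genes that were expressed. E2F factors are expressed throughout and taste receptors, chemokine receptors and the cornified envelope families have no member expressed.

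HOX genes give cells their position along the body axis, and the paralogue group of a gene, its number, follows its place in the cluster. Of 38 HOX genes in the table, 21 were expressed, against 61.4% of all protein-coding genes. HOXD10 was highest at 15.4, 16.8 and 14.8 FPKM, followed by HOXB7 at 13.2, 13.9 and 12.9 FPKM, HOXD9 at 7.69, 7.75 and 7.60 FPKM and HOXB9 at 6.79, 6.34 and 5.76 FPKM. The next, HOXD11, was at 3.88 ± 0.415 FPKM. In the HOXB and HOXD clusters 0 of the 7 genes of groups 1 to 4 were expressed: HOXB1 had no read, HOXB2 and HOXD3 were at or under 3 reads, and HOXD1 and HOXD4 had means of 0.262 and 0.0743 FPKM. HOXB3 and HOXB4 lay between. The HOXB count depends on the cut: of 10 genes 4 were expressed, but 7 at 0.5 FPKM and 6 without Control 1. In the HOXA cluster HOXA7, HOXA5 and HOXA3 lay between 3.21 and 3.62 FPKM on average, with HOXA4 at or under 3 reads. PITX1, a factor of the mandible and hind limb, was at 10.5 FPKM.

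**Figure D5:**
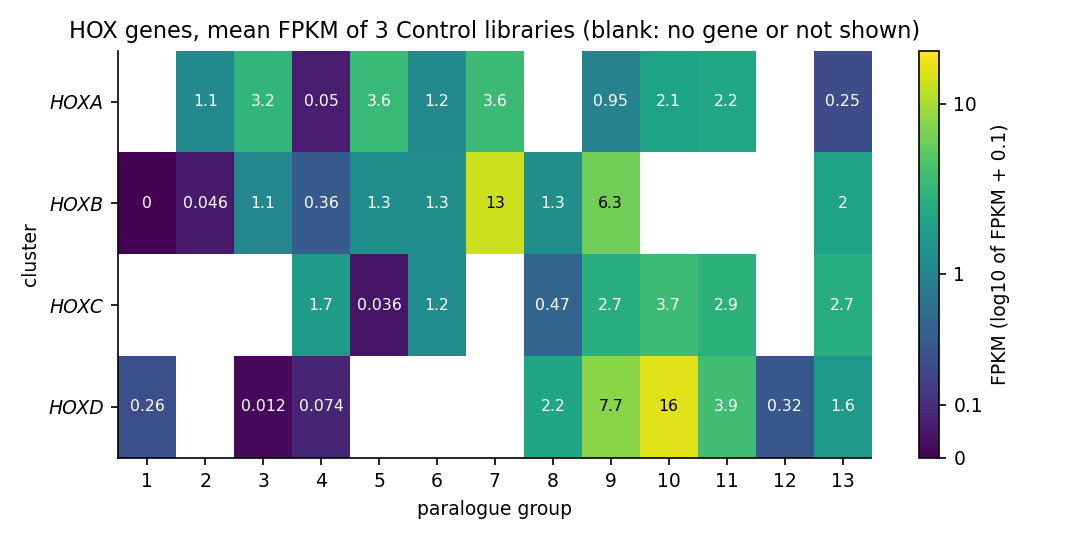
Mean FPKM over 3 Control libraries of the HOX genes, by cluster (rows) and paralogue group (columns), coloured on a log scale of FPKM + 0.1; blank cells hold no gene or a gene that is not shown. HOXD10 and HOXB7 stand highest, at 15.7 and 13.4 FPKM.

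Cell cycle genes centred on CCND1. Cyclin D1 pairs with CDK4 or CDK6 to drive cells out of G1. CCND1 exceeded CCND3 22.4 ± 1.09-fold and CCND2 25.0 ± 1.23-fold in FPKM, and CCND3 and CCND2 were at 15.4 ± 0.671 and 13.8 ± 0.626 FPKM. CDK4 was at 34.6 ± 2.41 FPKM, 4.66 ± 0.359-fold above CDK6. The inhibitors CDKN1A and CDKN1B were at 40.2 ± 2.85 and 31.1 ± 1.28 FPKM, and CDKN2A, the tumour suppressor locus often lost in this cancer, was at 13.4, 14.1 and 14.4 FPKM, resting on 903 to 952 reads. RB1, which the cyclin D kinases inactivate, was at 21.1 ± 1.003 FPKM. Of 18 genes of this group 17 were expressed, CDKN1C being the exception.

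Genes beside CCND1 on chromosome 11 did not share its level. Of 9 such genes in the table, 6 were expressed: CTTN, cortactin of the actin cortex, was at 78.2, 75.8 and 76.2 FPKM, MYEOV at 26.2 ± 1.35 FPKM, PPFIA1 at 16.3 ± 0.632 FPKM and FADD, a death receptor adaptor, at 14.4 ± 1.30 FPKM. ORAOV1 had 6.36 ± 0.308 FPKM and TPCN2 3.06 ± 0.107 FPKM. ANO1, a chloride channel of the same region, had a mean of 0.566 FPKM, and FGF19 of 0.115 FPKM. Copy number was not measured in these libraries.

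Metallothioneins, small proteins that bind zinc and copper, differed widely within the family. They summed to 1.07% ± 0.0454 of all FPKM, and MT2A and MT1E supplied 98.6% of the sum. MT2A was at 2147, 2055 and 2236 FPKM and MT1E at 569, 593 and 617 FPKM. MT1X, a neighbour on the same strand of chromosome 16, was at 1.56, 1.42 and 1.33 FPKM, on 43, 39 and 36 reads. MT1L, MT1M and MT1F were expressed at 21.0, 12.7 and 4.65 FPKM, and MT3 had no read. Of the 50-base windows, 3.02% in MT2A and 18.3% in MT1X occur in another gene, so the level of MT1X is the less certain of the pair.

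Metallothionein promoters carry copies of a metal response element, bound by the zinc-sensing factor MTF1, with the core TGCACNC or TGCGCNC. Both promoters are shown because they hold similar elements beside levels that differ widely. In the 250 bases before the start, searched on both strands, MT2A holds 7 core matches and MT1X 4, and each holds 1 TATAAA box on its own strand. At least 1 core match stands before 24.8% of all 35093 RefSeq starts and before 37.1% of the 315 starts of genes at 100 FPKM or more, and 4 or more stand before 0.368% of all starts. Positions -250 to -1 are printed, MT2A from chr16:56608334-56608583 and MT1X from chr16:56682220-56682469, both on the plus strand of GRCh38.p14; capitals mark the core matches on either strand and the TATAAA box, at -29 in MT2A and at -30 in MT1X, and no core match overlaps the box. The AP-1 match of MT2A, at -104, is left in lower case.
MT2A: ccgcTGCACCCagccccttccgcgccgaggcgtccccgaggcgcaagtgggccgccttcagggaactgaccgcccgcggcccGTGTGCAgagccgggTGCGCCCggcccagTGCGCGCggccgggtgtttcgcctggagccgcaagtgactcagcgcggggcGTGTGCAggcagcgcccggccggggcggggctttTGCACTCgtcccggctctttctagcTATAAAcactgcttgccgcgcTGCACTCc
MT1X: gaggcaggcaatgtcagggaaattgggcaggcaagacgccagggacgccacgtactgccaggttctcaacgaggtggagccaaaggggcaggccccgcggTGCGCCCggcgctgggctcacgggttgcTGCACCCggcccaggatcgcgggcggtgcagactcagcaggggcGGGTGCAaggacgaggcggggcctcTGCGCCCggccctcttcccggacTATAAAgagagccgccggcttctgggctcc

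Cancer-testis genes are silent in most adult tissues and can be reactivated in tumours. The only ones listed here, MAGE genes, were all or none. Of 10 MAGE-A, MAGE-B and MAGE-C genes in the table, 3 were expressed and the other 7 were at or under 3 reads, with no gene between. MAGEA4 was at 66.9, 67.9 and 64.5 FPKM, MAGEA3 at 65.2, 63.0 and 68.0 FPKM and MAGEA6 at 57.4, 64.7 and 61.5 FPKM, with overlapping ranges. MAGEA3 and MAGEA6 are near copies: 56.5% and 53.9% of their 50-base windows occur in another gene, against 2.69% in MAGEA4. Together they had 127 ± 3.56 FPKM, and their split is uncertain.

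The starts of MAGEA3 and MAGEA6 cannot be told apart by sequence. Over the 250 bases before the start they differ at 0 positions, and the last 120 of them are printed once, from MAGEA3 (chrX:152698674-152698793, plus strand); the copy of MAGEA6 lies at chrX:152769690-152769809 on the minus strand. MAGEA2 and MAGEA12, further members of the cluster, were at or under 3 reads.
MAGEA3: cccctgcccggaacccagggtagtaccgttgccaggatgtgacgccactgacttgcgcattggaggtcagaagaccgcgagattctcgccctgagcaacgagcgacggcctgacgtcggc

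Some calcium-binding and membrane-binding proteins were abundant. Of 19 S100 genes 10 were expressed (52.6%, against 61.4% of all protein-coding genes), and the 4 highest supplied 85.3% of their summed FPKM. S100A6 was at 470, 469 and 489 FPKM, with S100A2 and S100A11 (345 ± 4.43 FPKM) after it. S100A8 and S100A9 form a pair in inflamed epithelium, yet S100A9 was at 35.4, 33.5 and 35.0 FPKM and S100A8 had a mean of 1.22 FPKM. Of 12 annexins 10 were expressed, ANXA2 at 282, 302 and 275 FPKM. Of 12 clade B serpins 9 were expressed, SERPINB1 highest at 47.6 ± 0.630 FPKM, and SERPINB5, the maspin of squamous cells, at 16.6 ± 0.433 FPKM.

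Of 24 surface antigens chosen for the list, 22 were expressed. CD44, the hyaluronan receptor, was at 263, 264 and 269 FPKM, BSG at 182 ± 1.41 FPKM and CD59 at 135 ± 2.40 FPKM. PROM1 and VTCN1 were at or under 3 reads. HLA class I genes were expressed in 5 of 6 cases, HLA-C at 331, 307 and 318 FPKM. HLA genes vary between people, and reads of an allele unlike the reference may be lost, so their levels are uncertain. Of 15 class II genes 3 were expressed, HLA-DRA highest at 8.46 ± 0.249 FPKM.

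Genes of sugar metabolism and detoxification followed. SLC2A1, the basal glucose transporter, was at 77.6, 76.1 and 80.8 FPKM and SLC2A6 at 28.2 ± 1.97 FPKM, whereas SLC2A3 had a mean of 0.203 FPKM and SLC2A2 was at or under 3 reads; 4 of 13 glucose transporters were expressed. LDHA, which makes lactate, was at 405 ± 2.94 FPKM and PKM at 493 ± 2.61 FPKM. GSTP1, a detoxifying transferase, was at 381 ± 9.08 FPKM. Of 18 aldehyde dehydrogenases 12 were expressed, ALDH18A1, of proline synthesis, first at 27.7 ± 0.925 FPKM and ALDH9A1 next at 25.6 ± 0.446 FPKM, while ALDH1A1 had a mean of 0.493 FPKM.

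Among noncoding RNAs, UCA1, a long noncoding RNA first found in urothelial carcinoma, was at 110, 97.6 and 113 FPKM. The nuclear RNAs NEAT1 and MALAT1 were at 65.9 ± 4.06 and 61.3 ± 3.17 FPKM. MIR205HG, the host gene of an epithelial microRNA, was at 57.0 ± 3.49 FPKM. H19 had a mean of 0.175 FPKM and MEG3 was at or under 3 reads. Of 11 such RNAs in the table, 6 were expressed. Libraries made from polyadenylated RNA hold little of the RNAs that lack a tail. Such genes can be neither called silent nor ranked against others from these values.

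Gene families typical of other organs had few expressed members. Of 75 olfactory receptors 1 was expressed, OR2A7 at 2.19 ± 0.283 FPKM, and 63 were at or under 3 reads. Of 18 taste receptors 0 were expressed and 10 were at or under 3 reads, with TAS2R31 highest at 0.906 FPKM. Of 14 mucins 2 were expressed, MUC1 and MUC16, and 4 were at or under 3 reads. Of 12 kallikrein-related peptidases only KLK5 was expressed and 4 were at or under 3 reads, and of 11 beta-defensins only DEFB131B, at 2.43 ± 0.795 FPKM; 40.2% of its 50-base windows occur in another gene.

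A low value is not always a silent gene. Cytosolic ribosomal proteins are needed by every dividing cell, and 77 of 81 of these genes were expressed, together 4.73% ± 0.118 of all FPKM, with RPS2 at 531, 631 and 618 FPKM. Yet RPS10 had 0.861, 0.588 and 0.958 FPKM and RPL17 0.729, 0.522 and 0.266 FPKM. On the same strand, exons of other genes cover 39.4% of the exon bases of RPS10 and 32.7% of those of RPL17. The processed pseudogenes RPS28P7 and RPL9P9 were at 691 ± 30.7 and 539 ± 30.4 FPKM, above their parents RPS28 (40.4 ± 1.17 FPKM) and RPL9 (75.4 ± 4.204 FPKM), and 100% and 88.1% of their 50-base windows occur in another gene. Reads of parent and pseudogene cannot be told apart in these values. The low genes KRT19, VIM, PTPRC and SOX2, of which PTPRC alone was at or under 3 reads in every library, have 0.977%, 0.173%, 0% and 2.03% of their windows in another gene.

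The genes least steady between the 3 libraries were few. Among 4698 genes that averaged 10 FPKM or more and had 100 reads or more in every library, the median coefficient of variation was 3.34% and 3 genes exceeded 20%. These were MTCO1P12, a pseudogene of MT-CO1, at 16.5, 33.6 and 19.8 FPKM, the noncoding AC105460.1, and RN7SL2, an RNA of the signal recognition particle, at 114, 179 and 145 FPKM. The next was CXCL10, an interferon-induced chemokine, at 19.8, 13.5 and 18.8 FPKM, then AC136475.3, MT1M, AC018638.4, SMDT1, EIF1AXP1 and HES4, at 17.2% to 19.5%. Control 2 was highest for MTCO1P12 and RN7SL2 and lowest for CXCL10.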

How the data were processed

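RNA-seq of CAL-27 cells gave 9 libraries, of which the 3 labelled Control were used. According to the labels and methods, poly(A) RNA was made into stranded libraries, sequenced on an Illumina NovaSeq instrument and processed on hg38 with Trimmomatic, HISAT2, Cufflinks and HTSeq, in versions not given in the sources used here. The authors deposited FPKM per gene. Whole reads were recovered from the FPKM steps (tolerance 0.001 reads) with exon lengths of GENCODE release 29, which held 33074 of 33216 genes and equalled the authors' lengths for 31657; 94.6% of values above 0 were whole. Recovery was tested on simulated data. Analysis used Python 3.11.15 and pandas 2.3.3. Values are means ± SD of FPKM over 3 samples that the study calls independent; no test was made.

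Gene lists and members were chosen with earlier results of these data known. The rule named the 20 highest genes, the 4 markers, both siRNA targets, up to 6 members per list, silent members and the 10 genes of highest coefficient of variation; other genes were named after their values were seen. Shared 50-base windows and exon overlap were computed from GENCODE release 29. A few genes are not reported here. The limit of 3 reads covers counting error only.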

Additional observations from a re-analysis of the deposited data

How the results depend on the processing

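The number of expressed genes, 11834, was 13675 at 0.5 FPKM, 10009 at 2 FPKM, 14464 with 10 reads in every library and 12638 by the mean, and 12044 to 12129 without each replicate in turn. Shares of the total depended on what was summed. The 10 highest genes held 5.16% of recovered reads, 5.99% of FPKM without mitochondrial genes and 13.8% without genes under 500 bases; without each replicate in turn the share was 13.1% to 13.3%. For the 100 highest genes the values were 17.7%, 19.9% and 29.5%, with 29.9% to 30.4% without each replicate. The keratins held 0.369% of reads and 0.370% of FPKM without mitochondrial genes, and 0.314% to 0.321% without each replicate. Over all lineage lists 36 genes were expressed, 43 at 0.5 FPKM and 33 at 2 FPKM, and over all other lists 876, 990 and 709. Leaving out a replicate kept 36 lineage genes and gave 885 to 889 others. Of the 87 lists taken singly, the count moved by more than 1.5 times, or from or to 0, in 11 at 0.5 FPKM, 13 at 2 FPKM and 1 without Control replicate 3. The median coefficient of variation, 5.37%, was 9.44% over all genes above 0, and 4.23% to 4.58% without each replicate, an alternative added after the data were seen. The median SD of log2(FPKM + 0.1), 0.14, was 0.087 with a pseudocount of 1, 0.15 with 0.01, and 0.11 without each replicate (0.107 to 0.111, also added later). For both measures of spread, a median SD over fewer libraries is lower for that reason alone. The values without a replicate therefore do not compare with the main ones. No paired analysis was possible because the result comes from no test and only 1 group was used. FPKM hides the counting of shared reads, and genes with few reads cannot be called absent.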
